A study of Mus musculus with 4 samples.

Results

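The genes described here are 10 immediate early response genes, Fos, Fosb, Jun, Junb, Egr1, Nr4a1, Ier2, Ier3, Atf3 and Dusp1, out of 21861 features counted per cell in 4 mouse brain tumors. They were chosen by name, and their rows were read in every cell class of every mouse, to tell a change shared by all cells of a library from one in vessel or immune cells. All 10 were measured, and all 10 passed the filter on low counts in each comparison.

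Immediate early genes are switched on within minutes of a stimulus such as a growth factor, a cytokine or mechanical stress, from transcription factors that already sit in the cell and with no need for new protein. Kinases of the MAP kinase family carry the signal to the serum response factor, to its partners of the ELK family and to CREB, which bind the promoters of these genes. Many of the products are themselves transcription factors, and their mRNAs are short-lived, so that the level follows recent signalling. Handling and enzymatic digestion of fresh tissue are also known to induce them. All 4 tumors were minced, digested with papain and DNase and freed of red blood cells. The suspensions were then frozen, and after thawing dead cells were removed by sorting before loading. The part of these steps in the levels was not tested.

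All 4 mice had the genotype hGFAP-cre::TP53Fl/Fl::lsl-MYCN, in which the human GFAP promoter drives Cre in neural progenitors, Trp53 is lost, and human MYCN is expressed together with luciferase (FLUC). Recombination is thus restricted to cells of the neural lineage, and endothelial, mural and immune cells are host cells. The tumors of mice 4 and 5 were taken at 43 days of age (P43) and those of mice 6 and 7 at 70 days (P70), with 1 tumor, 1 library and no untreated tissue per mouse. No label gives a preparation batch, so that age and library preparation cannot be told apart. Mouse 4 and mouse 7 are labelled female and mouse 5 and mouse 6 male. The level of 4 Y-linked genes was summed over endothelial, mural, myeloid, dendritic and lymphoid cells and neutrophils. It was 223, 0.634, 187 and 0 UMIs per 1000000 (counts scaled in this way are given as CPM) for mice 4 to 7. These values went against the labels of both P43 mice and left 1 mouse of each kind at each age.

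Of the 10 genes, 4 were higher at P70 in both vessel classes, endothelial and mural cells. Over all genes tested, 6.02% were higher in endothelial and 10.8% in mural cells, and the share higher in both was not counted. The sequences ahead of the start sites of the 4 genes are shown for what they share. These are 250 bases upstream of the start site from RefSeq (GRCm38.p6), written 5′ to 3′ on the strand of the gene. Capitals mark the core of the cAMP response element that CREB and ATF proteins bind, TGACG, on either strand (CGTCA where it lies on the opposite strand), and the TATA box TATAAA. Fos lies on the plus strand of chromosome 12, and the window is chr12:85473640-85473889. Nr4a1 lies on the plus strand of chromosome 15 (chr15:101266596-101266845), Junb on the minus strand of chromosome 8 (chr8:84978749-84978998) and Atf3 on the minus strand of chromosome 1 (chr1:191183334-191183583).
Fos promoter: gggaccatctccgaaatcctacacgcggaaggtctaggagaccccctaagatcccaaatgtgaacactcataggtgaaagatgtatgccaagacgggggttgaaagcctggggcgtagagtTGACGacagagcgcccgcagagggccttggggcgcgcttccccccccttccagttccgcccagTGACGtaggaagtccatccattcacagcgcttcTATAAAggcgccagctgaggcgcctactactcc
Nr4a1 promoter: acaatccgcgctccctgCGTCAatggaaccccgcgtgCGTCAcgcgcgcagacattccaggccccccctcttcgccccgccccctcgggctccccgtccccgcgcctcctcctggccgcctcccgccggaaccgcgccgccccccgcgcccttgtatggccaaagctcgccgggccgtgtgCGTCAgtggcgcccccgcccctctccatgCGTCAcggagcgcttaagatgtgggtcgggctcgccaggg
Junb promoter: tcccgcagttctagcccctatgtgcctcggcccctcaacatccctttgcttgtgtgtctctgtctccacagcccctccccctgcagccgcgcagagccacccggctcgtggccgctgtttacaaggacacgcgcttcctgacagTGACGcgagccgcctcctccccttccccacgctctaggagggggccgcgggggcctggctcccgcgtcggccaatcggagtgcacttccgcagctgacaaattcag
Atf3 promoter: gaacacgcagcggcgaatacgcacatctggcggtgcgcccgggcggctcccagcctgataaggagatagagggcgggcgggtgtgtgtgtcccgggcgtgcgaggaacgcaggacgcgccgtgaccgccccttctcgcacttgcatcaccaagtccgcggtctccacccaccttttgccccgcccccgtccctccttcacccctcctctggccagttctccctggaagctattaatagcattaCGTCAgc

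All 4 windows held TGACG, with 2 matches in Fos, 4 in Nr4a1, 1 in Junb and 1 in Atf3. Of 32851 promoter windows of the same length, 17.8% held it. Fos also had TATAAA at 33 to 28 bases before the start, a motif found in 12.4% of windows. Among the other members searched, TGACG was found in Fosb and Dusp1. Dusp1 had the whole element TGACGTCA, which overlaps the core on both strands and was found in 1.55% of windows. Jun and Ier3 had none of these letters in the window. The CArG box of the serum response factor (1.47% of windows) and the AP-1 site TGANTCA (6.75%) were searched on both strands. Neither had a match in the windows of the 8 members searched. Egr1 and Ier2 were not searched, and neither were bases upstream of the window or past the start site. The search thus cannot tell whether a member lacks either site. A match is a description of the letters and not a bound site.

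A library held 1739 to 3693 barcodes and 13106786 to 40621958 unique molecular identifiers (UMIs, each a captured mRNA molecule). After filtering, 10975 cells remained (3319, 1456, 2731 and 3469 in mice 4 to 7), and 12 cell barcodes occurred in more than 1 library. The median depth of the kept cells was 1419, 4200, 4587 and 10449 UMIs for mice 4 to 7. A level in CPM is the sum of a gene's UMIs over the class in that mouse, scaled to 1000000 UMIs of the class. Since the 3′ end is counted, a level does not depend on transcript length. The clustering left out the 10 genes and the related gene lists below. The resulting classes were oligodendrocyte-like tumor cells (OL-like), a cluster led by genes of mature oligodendrocytes (OL-MOL), neuroblast-like and astrocyte-like tumor cells (NB-like, AC-like), endothelial cells (EC), mural cells with a small fibroblast cluster, Myeloid cells led by C1q genes, dendritic cells (DC), Lymphoid cells, mature oligodendrocytes (MOL) and precursors (OPC) in clusters below the reporter limit, neurons and neutrophils. OL-MOL passed the limit of 500 CPM of the reporters, human MYCN and FLUC, as a cluster but was of mixed makeup. The reporters were at 262 and 466 CPM in its P43 cells and at 1905 and 1086 at P70, and 10 genes of the oligodendrocyte lineage summed to 58671 and 71776 CPM at P43, near MOL of those mice (81025 and 74387), and to 13376 and 13621 at P70. MOL of mouse 7 had 694 CPM of the reporters, against 7.56 and 26.5 in mice 4 and 5, so that neither cluster can be taken as tumor or normal cells alone. Mouse 7 contributed few host cells, with 35 EC, 37 mural and 24 Lymphoid cells, and mouse 6 contributed 782 of the Myeloid cells.

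The 10 genes were far lower in OL-like and OL-MOL cells than in vessel and immune cells. Their summed level was 688 ± 197 CPM (SD, n = 4 mice) in OL-like cells and 1021 ± 257 in OL-MOL cells, against 7104 ± 2641 in EC, 6570.0 ± 3101 in mural cells, 7996 ± 2072 in Myeloid cells, 6219 ± 1474 in DC and 7007 ± 2797 in Lymphoid cells. The 5 host classes did not differ beyond their spread over mice, whereas DC and OL-MOL cells, the neighbours in this order, did. This spread takes both ages together and leaves out that the classes share mice. At P43 the sum was 4028 and 5185 CPM in mural cells, against 9556 and 9989 in Myeloid cells of the same mice. At P70 it was 6008 and 11059 CPM in mural cells, against 5929 and 6511 in Myeloid cells.

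Single members were spread unevenly over the host classes. Jun, the AP-1 subunit that pairs with Fos proteins, was highest in EC (2429 ± 794 CPM, n = 4) and mural cells (1925 ± 645), which did not differ beyond their spread. Fos, its partner, was highest in Myeloid cells (2026 ± 532), followed by DC (1426 ± 507) and Lymphoid cells (1240 ± 485). Junb, an AP-1 subunit with weaker activity than Jun, and Fosb, a paralog of Fos, led in Lymphoid cells (2167 ± 868 and 1168 ± 782). Egr1, a zinc finger factor downstream of ELK and serum response factor, was set apart in mural cells at 754 ± 294, with 314 ± 122 in EC and 193 ± 107 in Lymphoid cells. Ier2, a small nuclear protein, was most even over mice in EC, with 496, 574, 558 and 569 CPM in mice 4 to 7 and 348 ± 93.0 in Lymphoid cells as the next class. Dusp1, a phosphatase that switches MAP kinases off, was highest in Myeloid cells (1029 ± 322), as was Atf3, a stress-induced repressor of the CREB/ATF family (693 ± 169). Ier3, a survival gene induced by NF-kappa-B, was near 0 in OL-like cells (4.46 ± 2.32) and reached 461 ± 181 in EC. Nr4a1, an orphan nuclear receptor, was at 150.1 to 282 CPM on average in the host classes, with a spread that took both ages together. At P43 it was at 23.4 and 31.6 CPM in EC, against 304 and 301 in Myeloid cells of the same mice. At P70 it was at 261 and 285 CPM in EC and at 354 and 171 in Myeloid cells.

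**Figure D1:**
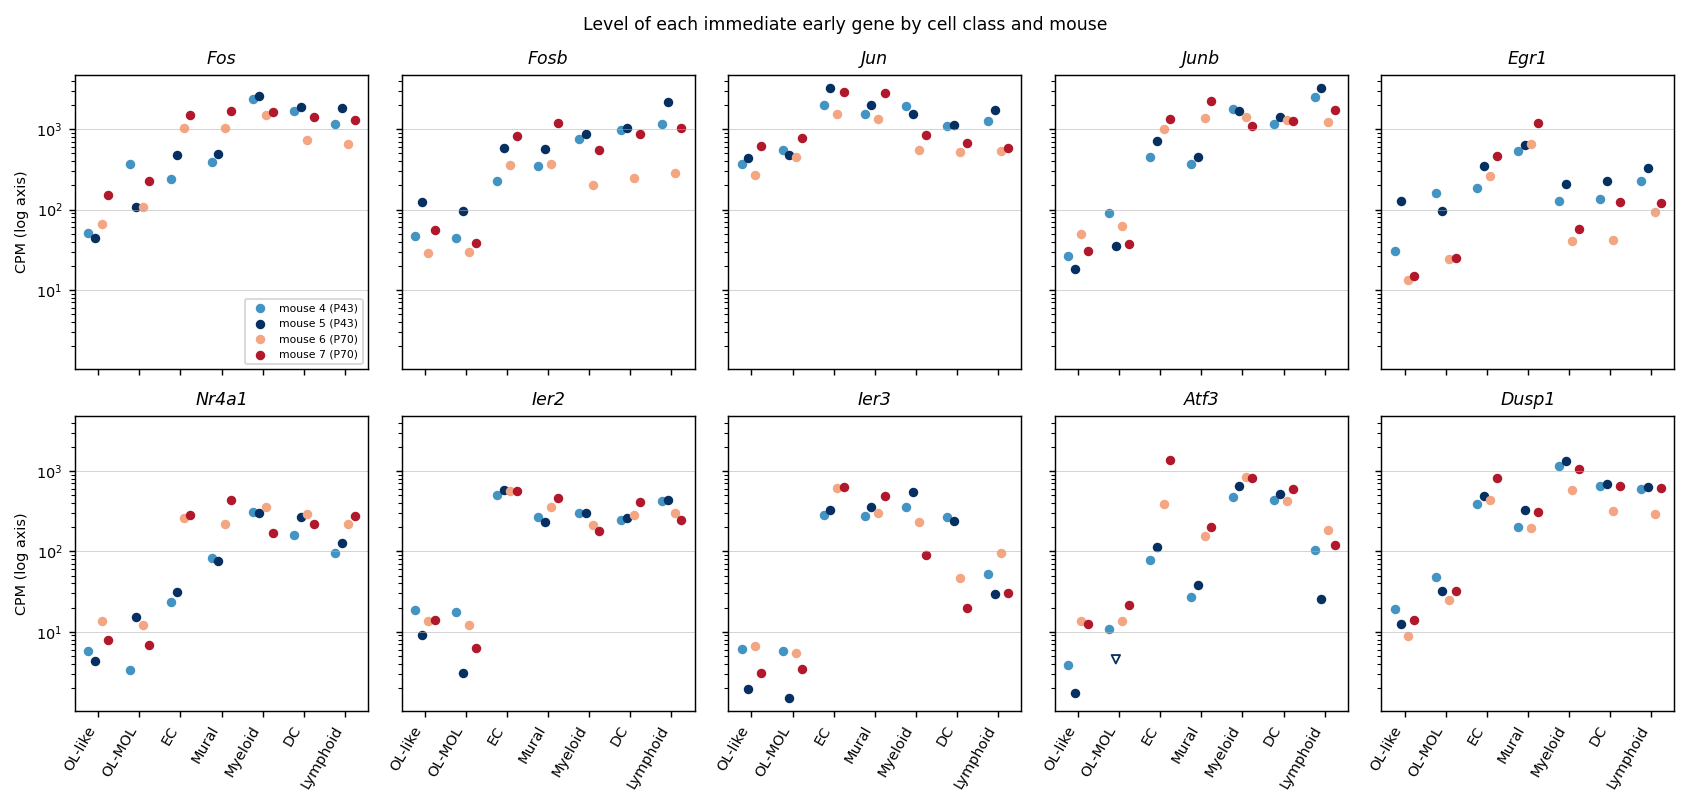
Level of each of the 10 genes (CPM, log axis) in 7 cell classes, with 1 point per mouse, blue for P43 and red for P70; the open triangle marks a count of 0 at the limit it allows. OL-like and OL-MOL cells lie below the host classes for most genes. Nr4a1, Atf3, Fos and Junb show both P70 mice above both P43 mice in EC and mural cells and, at lower levels, in OL-like cells. The share of all genes that do so was not counted.

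In OL-like tumor cells Jun alone made up most of the sum. It was at 365, 436, 268 and 610 CPM in OL-like cells of mice 4 to 7, which was 55.7 to 66.6% of all UMIs of the 10 genes there, against 22.5 to 47.2% in EC and mural cells. Fos was at 50.6, 44.9, 65.5 and 153 CPM in OL-like cells. Egr1 was at 30.7, 127, 13.2 and 15.0 CPM, with the highest value in mouse 5. Atf3, Ier3, Nr4a1, Ier2 and Dusp1 stayed below 20 CPM in OL-like cells of every mouse. In OL-MOL cells of mouse 5, Atf3 was not detected in 660657 UMIs, which allows a level of up to 4.54 CPM.

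The difference between classes was tested within mice on summed counts. All 10 genes were higher in EC than in OL-like cells, by log2 2.48 ± 0.22 (Jun) to 6.65 ± 0.40 (Ier3), where 27.9% of all genes tested were higher. The same held for all 10 in mural cells, by 2.10 ± 0.28 (Jun) to 6.27 ± 0.44 (Ier3), with 25.6% of all genes higher. In Myeloid cells all 10 were higher by 1.65 ± 0.29 (Jun) to 6.92 ± 0.42 (Atf3), with 23.6% of all genes higher. The adjusted p-values (edgeR quasi-likelihood test, Benjamini-Hochberg over all genes tested) were at most 0.000682 in these 30 tests. The count of 10 was kept in each comparison without any 1 mouse.

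With age, 5 of the 10 genes were higher at P70 in EC, and none was lower. Nr4a1 was at 23.4 and 31.6 CPM at P43 (mice 4 and 5) and at 261 and 285 at P70 (mice 6 and 7). Both P70 mice lay far above both P43 mice, with log2 3.32 ± 0.25 (adjusted p = 1.8e-06, edgeR). Atf3 was at 77.2 and 115 CPM at P43 and at 385 and 1366 at P70, where mouse 7 stood well above mouse 6. With each cell weighted equally, Atf3 was at 77.2 and 99.5 CPM at P43 and at 366 and 788 at P70. Its log2 difference was 2.91 ± 0.40 (adjusted p = 0.000247). Fos rose from 239 and 483 CPM to 1024 and 1494 (log2 1.79 ± 0.29, adjusted p = 0.001). Ier3 was at 283 and 327 CPM at P43 and at 606 and 626 at P70, and the mice of each age lay close together (log2 1.07 ± 0.20, adjusted p = 0.00292). Junb was at 455 and 711 CPM at P43 and at 1001 and 1323 at P70 (log2 1.0 ± 0.24, adjusted p = 0.0154). Of all 8776 genes tested in EC, 6.02% were higher and 3.51% lower.

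The other 5 genes overlapped between ages in EC. Jun was at 1990 and 3259 CPM at P43 and at 1550 and 2917 at P70, and it varied more between the mice of an age than between the ages. Fosb was at 229 and 578 CPM at P43 and at 359 and 825 at P70, with mouse 5 above mouse 6. Egr1, Ier2 and Dusp1 also had a P43 mouse above a P70 mouse. Jun, the most abundant member in EC, was thus not among the genes that rose.

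The calls in EC rested on all 4 mice. Without mouse 7, which had 35 EC, none of the 10 genes passed the test, and without mouse 6 only Atf3 did. Without mouse 4, Atf3 and Nr4a1 passed, and without mouse 5, Atf3, Fos and Nr4a1 did. The log2 difference of Nr4a1 stayed at 3.13 to 3.56 and that of Fos at 1.37 to 2.39 over these fits. With cells of up to 60000 UMIs kept, Fos, Atf3 and Nr4a1 passed and Junb and Ier3 did not, and with DESeq2 Junb did not (adjusted p = 0.0545). Other values moved with age in EC as well. The summed level of 8 EC markers was 22292 and 22687 CPM at P43 and 14377 and 13761 at P70. Hemoglobin and other erythroid genes (5 genes) summed to 2452 and 2154 CPM at P43 and to 43.8 and 0 at P70. The 10 Myeloid markers summed to 34.5 and 20.4 CPM at P43 and to 162 and 85.4 at P70, against 7943 to 12747 in Myeloid cells. The median depth was 1641, 3644, 2032 and 1100 UMIs per cell in mice 4 to 7 and the median mitochondrial share 4.28, 3.54, 3.26 and 4.22%. Clustered with no integration, EC fell into a cluster of 416, 490, 79 and 28 cells in mice 4 to 7 and another of 23, 10, 216 and 7. Most EC of mouse 6 fell into the latter cluster, whereas most EC of mouse 7 fell into the former with those of both P43 mice. This split thus did not follow age. The part of these values in the result was not tested.

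Mural cells, the pericytes and smooth muscle cells around vessels, also had 5 of the 10 genes higher at P70 and none lower. Junb was at 364 and 448 CPM at P43 and at 1397 and 2259 at P70 (log2 2.32 ± 0.22, adjusted p = 3.99e-05, edgeR). Atf3 rose from 27.4 and 38.0 CPM to 155 and 203 (log2 2.51 ± 0.26, adjusted p = 6.01e-05). In both genes the P43 mice were close together and both P70 mice lay well above them. Fos was at 385 and 489 CPM at P43 and at 1021 and 1702 at P70 (log2 1.77 ± 0.23, adjusted p = 0.000284). Nr4a1 was at 82.2 and 76.1 CPM at P43 and at 216 and 439 at P70 (log2 2.01 ± 0.29, adjusted p = 0.000569). Ier2 was at 268 and 229 CPM at P43 and at 360 and 460 at P70, with a smaller difference (log2 0.87 ± 0.20, adjusted p = 0.00997). Of 8620 genes tested in mural cells, 10.8% were higher and 7.75% lower.

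Egr1 lay near the limit in mural cells. It was at 542 and 638 CPM at P43 and at 647 and 1188 at P70, so that mouse 6 lay next to mouse 5 (log2 0.74 ± 0.24, adjusted p = 0.0579). It passed under 8 alternatives, with adjusted p-values (edgeR) of 0.000304 without mouse 6, 0.0473 without mouse 5, 0.00515 with no filter on low counts, 0.0146 with cells of up to 60000 UMIs, 0.0231 with the list genes in the clustering, 0.0242 without fibroblasts, 0.0442 with no integration and 0.0488 with mitochondrial shares under 10%. Fosb, Jun, Ier3 and Dusp1 overlapped between ages, with Jun at 1531 and 2022 CPM at P43 and at 1352 and 2794 at P70. Mouse 7 had the highest level of 9 of the 10 genes in mural cells, all but Dusp1, from 37 cells.

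Leaving out any 1 mouse left 5 to 8 genes higher in mural cells. Fos, Junb, Atf3 and Nr4a1 passed in each of these fits, and Ier2 did not without mouse 5, nor with DESeq2 (adjusted p = 0.081). Without mouse 6, 8 genes passed. The fibroblast cluster added 20, 3, 29 and 1 cells to the class in mice 4 to 7, and without it the values were log2 1.79 for Fos, 2.34 for Junb, 2.56 for Atf3 and 2.03 for Nr4a1, all past the test. The 9 mural markers summed to 33405 and 38427 CPM at P43 and to 22150 and 21209 at P70. The Myeloid markers summed to 48.7, 47.3, 164 and 64.2 CPM in mice 4 to 7, and the median depth was 2206.5, 3608, 1754 and 1314 UMIs. Clustered with no integration, the cluster led by mural genes held 265, 261, 16 and 13 cells in mice 4 to 7. A cluster named by fibroblast genes and counted as mural held 29, 7, 222 and 24, so that this split went with age. It held far more P70 cells than the fibroblast cluster found with integration. Whether the makeup or the expression of the class differed was not tested. The part of these values in the mural result was not tested.

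**Figure D2:**
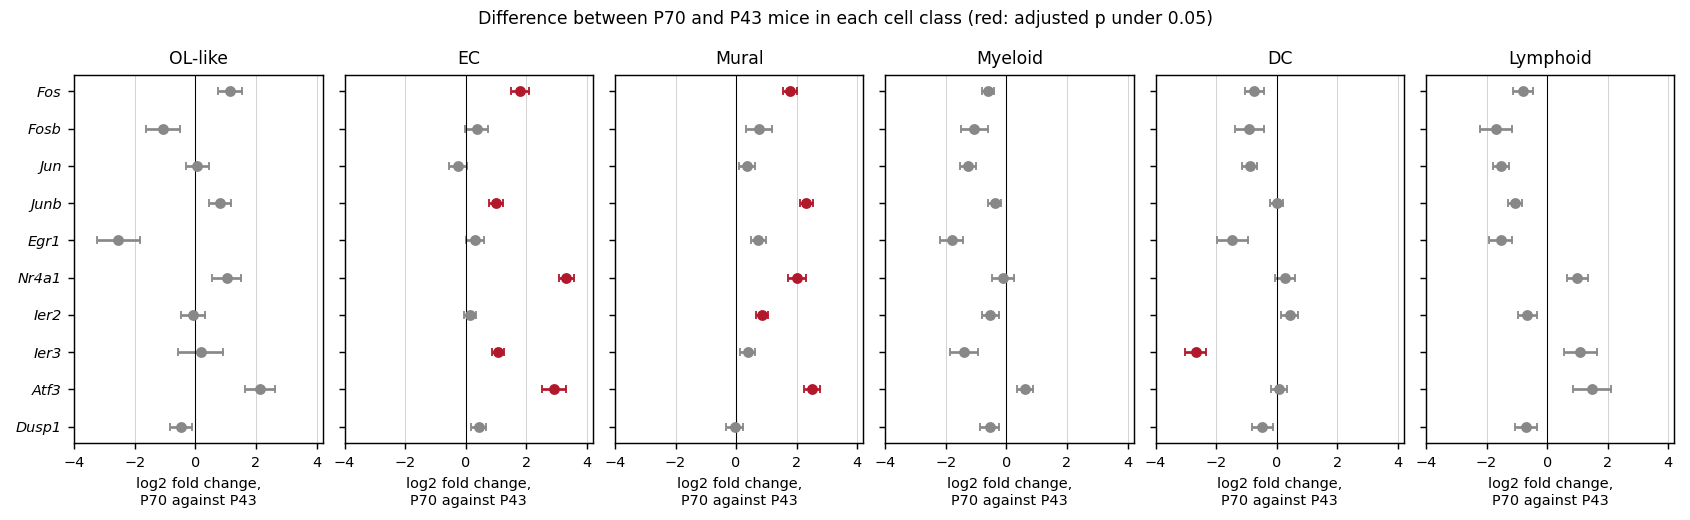
Log2 fold change of P70 against P43 mice for each of the 10 genes in 6 cell classes, with the standard error as bars (edgeR, 2 mice per age); red points have an adjusted p under 0.05. Red points lie to the right of 0 in EC and mural cells, and the only other one is Ier3 in DC, to the left.

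None of the 10 genes passed the test in OL-like tumor cells (adjusted p of 1 for each, edgeR), where 0% of 11515 genes were higher and 0% lower. Of the 10, 3 had an unadjusted p under 0.05, as had 527 of all genes, and DESeq2 called 1 of the 10 lower. The values went both ways. Atf3 was at 3.86 and 1.72 CPM at P43 and at 13.7 and 12.5 at P70 (log2 2.14 ± 0.50), and Egr1 was at 30.7 and 127 at P43 and at 13.2 and 15.0 at P70 (log2 -2.54 ± 0.70). Fos had log2 1.13 ± 0.39, Junb 0.80 ± 0.36 and Nr4a1 1.03 ± 0.47. In Fos, Junb, Nr4a1 and Atf3 both P70 mice lay above both P43 mice, as they did in EC and mural cells, and in Egr1 they lay below. The share of all genes that separate the ages in this way was not counted, so these are values only. OL-like cells of the 4 mice differed in depth, with medians of 1498, 23388, 5692 and 12392 UMIs.

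Myeloid cells showed values below 0 for 9 of the 10 genes, and none passed the test (edgeR). Of the 10, 6 had an unadjusted p under 0.05, as had 593 of all genes, and DESeq2 called 2 lower. Of 5190 genes tested, 0.0771% were lower. Fos was at 2379 and 2577 CPM at P43 and at 1505 and 1641 at P70, so that the mice of an age lay close and the ages did not overlap (log2 -0.60 ± 0.20, adjusted p = 0.296). Jun was at 1933 and 1524 CPM at P43 and at 546 and 835 at P70 (log2 -1.27 ± 0.27, adjusted p = 0.104). Egr1 was at 127 and 209 CPM at P43 and at 40.6 and 57.8 at P70 (log2 -1.80 ± 0.39, adjusted p = 0.104). Atf3 alone among the 10 pointed the other way in Myeloid cells, with 472 and 651 CPM at P43 and 829 and 822 at P70 (log2 0.61 ± 0.26). In Atf3 both P70 mice also lay above both P43 mice in OL-like, OL-MOL, EC, mural and Lymphoid cells, and the ages overlapped in DC. Within the B cell cluster and within the T and NK cell cluster of Lymphoid cells, the ages overlapped. Without the B cell cluster, the log2 difference of Atf3 in Lymphoid cells was 0.04 ± 1.11. Atf3 passed the age test in EC and mural cells only. The share of all genes that separate the ages in this way was not counted. Without mouse 6, the log2 difference was -0.98 for Jun and -1.52 for Egr1, and without mouse 7 it was -1.58 and -2.03.

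In DC, which present antigen to T cells, Ier3 was the 1 gene of the 10 that passed the test. It was at 264 and 237 CPM at P43 and at 46.1 and 19.7 at P70 (log2 -2.67 ± 0.35, adjusted p = 0.0121, edgeR), where 0.782% of 6137 genes were lower. This fall of Ier3 was present in the DC clusters led by Mgl2 and by Xcr1 and less clear in the others. In the cluster led by Mgl2 and Cd209a, Ier3 was at 397 and 306 CPM at P43 and at 43.2 and 20.2 at P70, and that cluster alone gave log2 -3.10, with Egr1 (-1.92) and Jun (-0.92) also past the test. In the Xcr1 cluster it was at 118 and 167 CPM at P43 and at 33.3 and 21.2 at P70. In the Ccr7 cluster, of 35, 8, 163 and 16 cells in mice 4 to 7, it was at 90.2 and 104 CPM at P43 and at 76.0 and 20.1 at P70, so that mouse 6 lay close to the P43 mice. The Ly6d cluster, of 4, 6, 59 and 3 cells, had 0 to 19.3 CPM. Without mouse 7, 6 of the 10 genes passed as lower in DC, and without mouse 4, 2 did. Fos, Fosb, Jun and Egr1 were also lower in both P70 mice than in both P43 mice in DC, and Ier2 was higher, but none of these passed with all mice. The share of all genes that separate the ages in DC was not counted. Mouse 6 had the lowest level of Fos, Fosb, Jun, Egr1 and Dusp1 in DC and held 518 of the cells.

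None of the genes passed in Lymphoid cells, where 0% of 5847 genes were lower (edgeR). Of the 10, 7 had an unadjusted p under 0.05, as had 576 of all genes, and DESeq2 called none. Among the 7, Atf3 (log2 1.49 ± 0.63) and Nr4a1 (0.99 ± 0.35) pointed up and the others down. Jun was at 1260 and 1724 CPM at P43 and at 533 and 576 at P70 (log2 -1.51 ± 0.26, adjusted p = 0.0855), and Junb was at 2491 and 3214 at P43 and at 1234 and 1728 at P70. The class differed in makeup, since B cells of low depth made up 172 of its 279 cells in mouse 6. In the T and NK cell cluster, the 10 genes summed to 7637 and 10458 CPM at P43, to 2420 in mouse 6 and to 7028 in mouse 7. Without the B cell cluster, Egr1 (log2 -2.35, adjusted p = 0.0462) and Jun (-2.24, adjusted p = 0.0239) passed as lower. Without mouse 4, 3 genes passed as lower and 1 as higher, and without mouse 7, 3 passed as lower.

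Whether the change with age differed between classes of the same mice was tested by an interaction of class and age with the mouse as a block. Against OL-like cells, EC had a higher log2 change in 3 of the 10 genes, Egr1 (log2 2.70 ± 0.46, adjusted p = 0.0019), Nr4a1 (2.28 ± 0.52, adjusted p = 0.0206) and Fosb (1.57 ± 0.40, adjusted p = 0.047), where 0.969% of all genes did. Egr1 and Fosb were lower on average at P70 in OL-like cells and did not pass the age test in EC, so that Nr4a1 is the 1 gene of the 3 with a rise in EC. Mural cells had a higher change than OL-like cells in Egr1 (2.96 ± 0.50, adjusted p = 0.0033) and Fosb (1.73 ± 0.41, adjusted p = 0.0244), where 2.6% of all genes did. For Fos, Atf3 and Junb the difference between vessel and OL-like cells did not pass. It was 0.86 ± 0.45, 0.87 ± 0.59 and 0.25 ± 0.45 for EC, and 0.74 ± 0.38, 0.41 ± 0.61 and 1.52 ± 0.46 for mural cells. Myeloid cells differed from OL-like cells in none of the 10 genes (edgeR), none by DESeq2, and 0.206% of all genes were lower. The unadjusted p was under 0.05 for 6 of the 10 and for 640 of all 12117 genes. Without mouse 6 or without mouse 7, none of these calls against OL-like cells was made, and without mouse 4 only Egr1 passed in EC. Fosb did not pass in either vessel class without mouse 5. In EC, Fosb also missed the limit with RLE size factors (adjusted p = 0.0634), with mitochondrial shares under 10% (adjusted p = 0.0651), with no integration and with the list genes in the clustering (adjusted p = 0.0737, edgeR), and Nr4a1 missed it in the last of these (adjusted p = 0.0697) and with DESeq2 (adjusted p = 0.0847). With cells of up to 60000 UMIs kept, none of the 3 passed in EC. In mural cells Fosb missed the limit with 60000 UMIs (adjusted p = 0.0904) and with DESeq2 (adjusted p = 0.0753), and Junb passed under 4 alternatives (adjusted p from 0.0153 to 0.0453) and without mouse 5 (adjusted p = 0.000724).

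Between both vessel classes, the change of Nr4a1 was higher in EC (log2 1.50 ± 0.30, adjusted p = 2.38e-05, edgeR), as was that of Ier3 (0.80 ± 0.26, adjusted p = 0.0251), while 4.7% of all genes were higher. That of Junb was lower in EC than in mural cells (-1.22 ± 0.30, adjusted p = 0.00126), with 5.37% of all genes lower. Fos and Atf3 differed by 0.14 ± 0.29 and -0.01 ± 0.23. Nr4a1 did not pass without mouse 4 or mouse 6, Ier3 passed only without mouse 7, and Junb did not pass without mouse 4 or mouse 5. DESeq2 called neither Nr4a1 (adjusted p = 0.456) nor Ier3 (adjusted p = 0.74).

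Vessel and Myeloid cells of the same libraries had values of opposite sign in several genes, and these comparisons were added after the values had been seen. EC had a higher change than Myeloid cells in 7 of the 10 genes, all but Jun, Ier2 and Dusp1, where 2.94% of all genes did. Nr4a1 differed by log2 3.27 ± 0.43 (adjusted p = 2.02e-11), Fos by 2.40 ± 0.40 (adjusted p = 4.77e-07) and Ier3 by 2.36 ± 0.40 (adjusted p = 7.88e-07, edgeR). Mural cells had a higher change than Myeloid cells in 9 of the 10 genes, all but Dusp1, where 5.34% of all genes did. Junb differed by 2.57 ± 0.28 (adjusted p = 6.14e-18) and Fos by 2.24 ± 0.27 (adjusted p = 2.9e-14). Without the mouse as a block, none of the 10 genes passed in the comparisons with OL-like cells and between the vessel classes, 2 passed in EC against Myeloid cells and 4 in mural against Myeloid cells. Without mouse 4 or without mouse 5, 3 passed in EC against Myeloid cells.

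Per cell, each cell was thinned to 2000 UMIs and counted when at least 5 of the 10 genes were found. This held for 29.9% of EC in mouse 4 (95% exact binomial interval 23.6 to 36.7%, 201 cells), 44.5% in mouse 5, 48.3% in mouse 6 (40.1 to 56.6%, 149 cells) and 55.6% in mouse 7 (21.2 to 86.3%, 9 cells). Mural cells had 25.8, 41.0, 48.3 and 86.7%, the last from 15 cells. In OL-like cells the share was 0.142, 1.45, 1.74 and 0.607%. Their median depth before thinning was 1498, 23388, 5692 and 12392 UMIs in mice 4 to 7, against 1641, 3644, 2032 and 1100 in EC. With this unlike depth, their share is no measure of the UMIs from free RNA in EC, whose part was not tested. The share in Myeloid cells was 67.6, 76.4, 50.0 and 56.8%. The share was higher in both P70 mice than in both P43 mice in EC and mural cells, as values with no test, since mouse 7 had fewer than 20 such cells of either class. In Myeloid cells it was lower in both P70 mice, by 18.6 percentage points on average (a difference of -18.6), and the exact two-sided permutation p was 0.333, the smallest that 2 against 2 mice can give. DC had 56.2, 75.9, 30.3 and 62.7%, and there the ages overlapped.

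The shares of EC with Nr4a1 or Fos were also higher in both P70 mice than in both P43 mice, as values with no test. Nr4a1 was found in 3.48 and 5.78% of EC at P43 and in 25.5 and 22.2% at P70, against 0.851, 0.483, 3.13 and 2.37% of OL-like cells in mice 4 to 7. Fos was found in 23.9 and 34.7% of EC at P43 and in 53.0 and 66.7% at P70. Jun was found in 84.6, 88.2, 73.8 and 88.9% of EC and thus in most EC at either age. All these shares are at 2000 UMIs per cell, with 9 EC of mouse 7 deep enough.

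**Figure D3:**
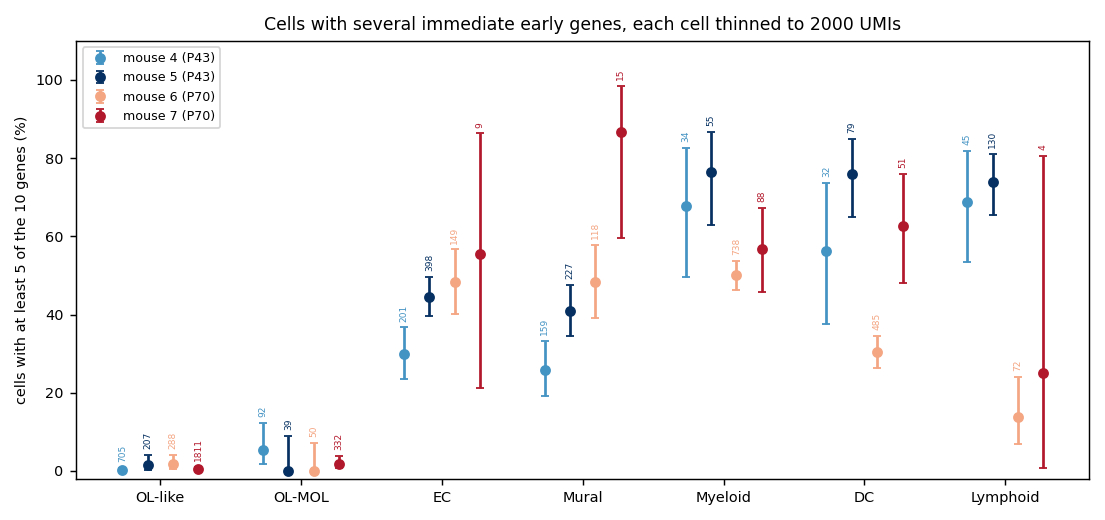
Share of cells with at least 5 of the 10 genes after thinning to 2000 UMIs (%), by class and mouse, with 95% exact binomial intervals that cover counting error only and the number of cells above each bar. EC and mural cells go from 29.9 and 25.8% in mouse 4 to 55.6 and 86.7% in mouse 7, and OL-like cells stay below 2%.

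Other immediate early genes were also mostly higher at P70 in the vessel classes, in a list chosen with earlier results of these data known. Of 50 other immediate early genes, 41 were tested in EC, of which 21 were higher and 4 lower at P70. Over all genes tested in EC, 6.02% were higher and 3.51% lower. The median log2 of the list was 0.88 against -0.04 over all genes. The 6 largest included Nfkbid and Nfkbiz, nuclear regulators of NF-kappa-B (log2 4.01 ± 0.69 and 2.16 ± 0.27), and Dusp2, a phosphatase of MAP kinases (3.77 ± 0.43). The others were Csrnp1 (2.63 ± 0.35), Cebpb, a leucine zipper factor of inflammation (2.49 ± 0.53), and Socs3, which restrains cytokine receptors (2.44 ± 0.32). In mural cells 42 were tested, of which 26 were higher and 2 lower, where 10.8% of all genes were higher and 7.75% lower. The median was 1.46 against -0.01 over all genes. The 6 largest were Dusp2 (5.63 ± 0.51), Fosl2, a paralog of Fos (4.36 ± 0.35), Maff, a small MAF protein (4.26 ± 0.62), Egr2, a paralog of Egr1 (4.05 ± 0.80), Klf10 (3.89 ± 0.72) and Csrnp1 (3.45 ± 0.36).

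No gene upstream of them passed the test. Of 23 kinases and factors that act ahead of the immediate early genes, 0 were called in EC, where 23 were tested, and 0 in mural cells, where 22 were (edgeR). The unadjusted p was under 0.05 for 0 and 3 of them, and for 1877 of 8776 and 2663 of 8620 genes tested. Heat shock genes that passed were lower. All 13 were tested in both classes, and 4 were lower in each and none higher, where 3.51% of all genes were lower in EC and 7.75% in mural cells. These were Hsph1 (log2 -1.87 ± 0.36), Hspb1 (-1.48 ± 0.26), Hsp90aa1 (-1.16 ± 0.21) and Hspa1a (-0.85 ± 0.23) in EC, named after their values were seen. In mural cells they were Hspb1 (-1.35 ± 0.21), Hsph1 (-1.12 ± 0.26), Dnajb1 (-0.91 ± 0.25) and Hspa1a (-0.90 ± 0.19). These encode chaperones that are induced by heat and misfolded protein. Of the hypoxia and integrated stress genes, Adm was higher in EC (2.14 ± 0.27) and lower in mural cells (-1.18 ± 0.36), and Ddit3 was lower in mural cells (-1.53 ± 0.34).

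In the other classes few or none of the wider list passed. DC had 2 of 39 higher, Nr4a3 (log2 2.13 ± 0.35) and Dusp5 (1.39 ± 0.26), and 2 lower, Egr2 (-3.13 ± 0.60) and Gadd45g (-2.20 ± 0.33). Over all genes in DC, 0.766% were higher and 0.782% lower. OL-like, Myeloid and Lymphoid cells had 0 called among 40, 38 and 42 tested (edgeR), with 8, 15 and 10 at an unadjusted p under 0.05. Over all genes these were 527 of 11515, 593 of 5190 and 576 of 5847.

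**Figure D4:**
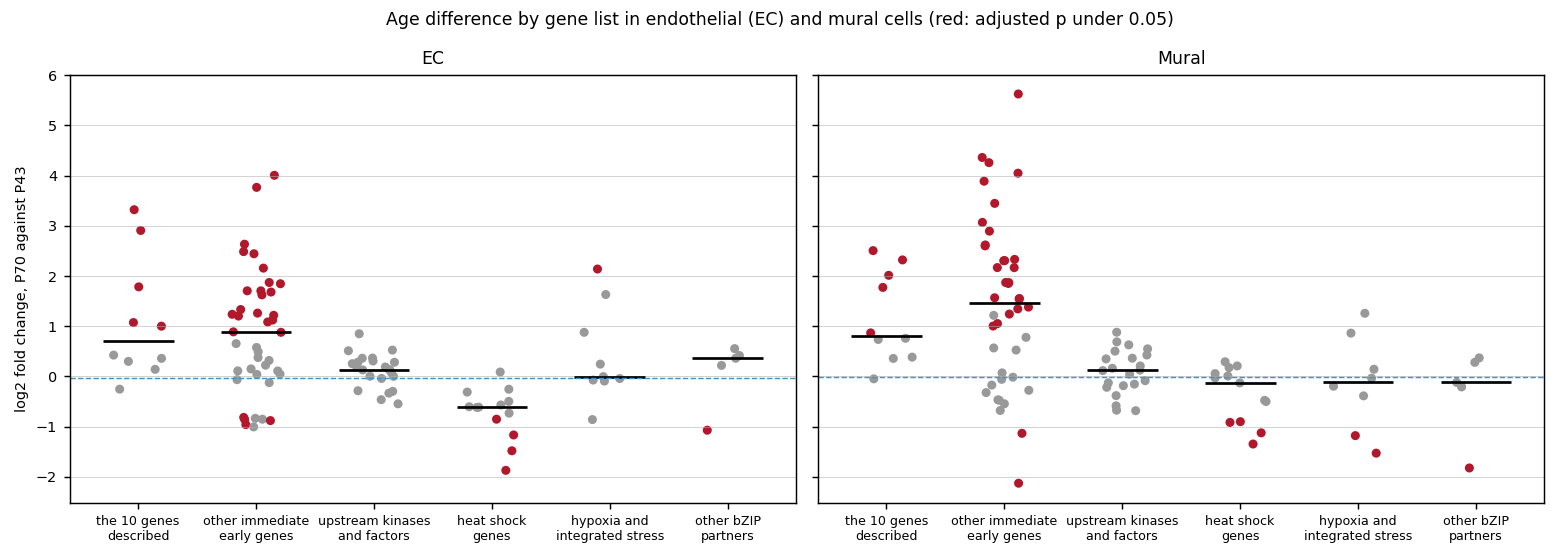
Log2 fold change of P70 against P43 in EC (left) and mural cells (right) by gene list, with 1 point per gene tested, a black line at the median of a list and a dashed line at the median of all genes; red points have an adjusted p under 0.05. The other immediate early genes lie mostly above 0, with medians of 0.88 and 1.46, and the called heat shock genes all lie below 0.

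Some classes had too few cells for a test over mice. AC-like tumor cells, 49 in mouse 6 and 197 in mouse 7, stood apart from the other tumor classes, with Fos at 1463 and 1481 CPM and the 10 genes at 4966 and 5543 in sum. At least 5 of the genes were found in 44.4% (27.9 to 61.9%) and 36.4% (29.5 to 43.8%) of them. NB-like cells of mouse 7, 592 in number, had a sum of 681 CPM, close to OL-like cells. OPC of mouse 7 (112 cells) had 2542 CPM, with Fos at 515, Egr1 at 399 and Jun at 906. MOL had 554 CPM in mouse 4, 942 in mouse 5 and 2303 in mouse 7, from 39, 35 and 41 cells, and Fos there was at 27.7, 142 and 710 CPM. Neutrophils of mouse 6 (98 cells) had 3809 CPM.

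The members themselves followed each other over the 39 sums of a class in a mouse with at least 20 cells. As a description, the correlation of a gene with the mean of the other 9 was highest for Junb (Pearson r = 0.948) and Ier2 (0.912) and lowest for Jun (0.726) and Egr1 (0.537). Outside the lists, the 10 genes most like the mean of the members were Ahnak (r = 0.915), Akap13 (0.915), Sertad1 (0.910), Msn (0.900), Adgre5 (0.889), Tap2 (0.888), Vasp (0.884), Iqgap1 (0.884), Tln1 (0.877) and Smpdl3a (0.876). Within the lists they were led by Nfkbia (0.934), Zfp36 (0.922) and Btg2 (0.910). The sums share libraries and a common split between classes, so that no test was made.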

How the data were processed

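Raw UMI counts per gene and barcode, not normalized, were deposited by the authors, made with Cell Ranger 6.0.2 against mm10 extended by human MYCN and luciferase, per the labels. The members and lists were chosen with earlier results of these data known. Kept barcodes had 200 or more genes, a mitochondrial share under 25% and no more than 40000 UMIs. They were integrated and clustered with Seurat 5.3.0 (2000 variable genes minus the genes of the lists, 30 components, resolution 0.5), with no doublet caller besides the UMI limit. Clusters with at least 500 CPM of the reporters were called tumor clusters, and names needed at least 3 marker genes raised 2-fold. These naming rules were set after clusters had been seen.

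UMIs were summed per mouse and class and tested where every mouse had at least 20 cells, with edgeR 4.0.16 (TMM, filterByExpr, quasi-likelihood test, Benjamini-Hochberg, limit 0.05). The standard error is the log2 fold change divided by the root of the test statistic. With 2 mice per age, the p-values rest on spread borrowed over genes and measure only the spread between these mice. Shares were compared by exact permutation tests (scipy 1.17.1), and 3 counts were taken as the limit a count of 0 allows. Named are all members, at most 6 list genes per class that passed the age test, by size, and the 10 genes outside the lists most correlated with the members in log2(CPM + 10), among genes with a mean of at least 20 CPM. Log2 values of members are given where they passed an age or interaction test. Of the other members, also of those past 2 standard errors, only some log2 values are given. Some list genes are not reported here. Alternatives were RLE size factors, DESeq2 1.42.0, no filter on low counts, thinned cells, 60000 UMIs, mitochondrial shares under 10%, resolution 1.0, no integration, clustering with the list genes, and leaving out each mouse. The tests were also run on counts simulated from fits to these data, with results not reported here. Libraries of P77 and P92 mice were not used here. Trbc1, Ighm and Igkc of the marker lists and the older symbols Cyr61, Ctgf, Mkl1 and Mkl2 had no feature.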

Additional observations from a re-analysis of the deposited data

Results flagged for a closer look

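The results below are members whose change with age differed between 2 cell classes of the same mice by the interaction test (edgeR, adjusted p under 0.05). Differences are in log2, P70 against P43, first class minus second. EC had a higher change than OL-like cells in Egr1 (2.70), Nr4a1 (2.28) and Fosb (1.57), and mural cells in Egr1 (2.96) and Fosb (1.73). EC had a higher change than mural cells in Nr4a1 (1.50) and Ier3 (0.80) and a lower one in Junb (-1.22).

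Against Myeloid cells, a comparison added after values had been seen, EC had a higher change in Nr4a1 (3.27), Fos (2.40), Ier3 (2.36), Atf3 (2.20), Egr1 (2.06), Fosb (1.74) and Junb (1.35). Mural cells had a higher change in Junb (2.57), Egr1 (2.32), Fos (2.24), Nr4a1 (1.97), Fosb (1.84), Atf3 (1.81), Ier3 (1.58), Jun (1.48) and Ier2 (1.25). Each group held 2 mice, so that no sample was tested as an outlier. Mouse 7, with 35 EC, 37 mural and 143 Myeloid cells, had the highest summed level of the 10 genes in EC (10701 CPM) and mural cells (11059 CPM), and mouse 6 the lowest in Myeloid (5929 CPM), DC (4198 CPM) and Lymphoid cells (3881 CPM).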

How the results depend on the processing

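No paired analysis was possible because the 2 ages share no mouse and the replicate numbers only name the mice; where classes were compared, the mouse was the block, and without the replicate block 0 members were called higher in EC and in mural cells against OL-like cells, 0 higher and 0 lower in EC against mural cells, 2 higher in EC and 4 in mural cells against Myeloid cells. The class differences kept all 10 members under each alternative run, except Egr1 in Myeloid cells without the block (log2 1.43).

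With cells up to 60000 UMIs, 3 members were higher in EC, 2 lower in DC and 1 higher in Lymphoid cells, with interaction calls of 0 for EC and 1 for mural cells against OL-like cells and 1 higher in EC against mural cells. DESeq2 called 4 members higher in EC (without Junb) and 4 in mural cells (without Ier2), 1 lower in OL-like and 2 in Myeloid cells, 2 higher for EC and 1 for mural against OL-like cells, 0 higher for EC against mural cells, and 4 for EC and 7 for mural against Myeloid cells. With no filter on low counts, 4 members were lower in Myeloid, 3 in DC and 4 in Lymphoid cells, and 1 was higher in EC against mural cells. Thinned sums called 1 member lower in Myeloid and 2 in DC; EC, mural and Lymphoid cells could not be fitted, with under 20 cells deep enough in mouse 7. Lymphoid cells had 2 members lower with mitochondrial shares under 10%, 2 with no integration and 2 without the B cell cluster, and the Cd209a cluster of DC had 3. Resolution 1.0 gave 1 member higher and 2 lower in EC against mural cells. With the list genes left in the clustering, 1 was higher in EC against OL-like cells and 2 lower in EC against mural cells. The causes of these shifts were not tested.

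Reversed signs were uncalled. In Lymphoid cells, 60000 UMIs gave Fos 0.0286 and Ier3 -0.17, mitochondrial shares under 10% gave Atf3 -0.0919, and leaving out each mouse in turn gave Ier3 -0.52 to 1.42; in EC against OL-like cells, 60000 UMIs gave Dusp1 -0.0862. The difference in share between ages in OL-like cells became -1.58 points with no thinning and -0.091 with no integration, and that in OL-MOL cells 1.47 with the list genes in the clustering.

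Leaving out 1 mouse in turn gave these ranges of members called. Higher: EC 0 to 3, mural 5 to 8, Lymphoid 0 to 1, EC against mural 0 to 2, EC against Myeloid 3 to 7, EC against OL-like 0 to 2, mural against OL-like 0 to 2. Lower: DC 1 to 6, Lymphoid 0 to 3, Myeloid 0 to 4, EC against mural 0 to 1. The difference in share ranged from -0.28 to 1.03 points in OL-like and from -4.53 to 0.90 in OL-MOL cells. EC, mural and Lymphoid values of mouse 7 rest on 35, 37 and 24 cells.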
